A study of Mus musculus with 60 samples.

Results

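The 38 genes described here define the T cell and its antigen receptor in mouse blood. They were taken from a list of gene names, with no threshold on their values, out of the 49315 genes in the count tables, and all 38 were found by gene ID and entered every comparison. By role they are 7 genes of the receptor complex (Cd3e, Cd3d, Cd3g, Cd247, Trac, Trbc1 and Trbc2), the coreceptor genes Cd4, Cd8a and Cd8b1, 4 genes of regulatory or recently activated cells (Foxp3, Ikzf2, Ctla4 and Icos), 10 genes of proximal signalling (Lck, Zap70, Lat, Txk, Skap1, Prkcq, Themis, Ubash3a, Trat1 and Camk4), 7 surface genes (Cd2, Cd5, Cd6, Cd27, Cd28, Thy1 and Ms4a4b), 5 transcription factors (Tcf7, Lef1, Bcl11b, Gata3 and Satb1), and Dapl1 and Igfbp4. The count tables came from whole blood of 60 male CD2F1 mice, bought at 5 to 6 weeks of age and older when bled, 6 mice in each of 10 groups. All mice received 12 oral doses over 6 days, either vehicle or BIO 300, a powder of the plant isoflavone genistein developed as a radiation countermeasure, at 50, 100 or 200 mg/kg. The vehicle, 50, 100 and 200 mg/kg groups were bled on Day 0, when 24 h had passed since dosing ended, and a second set of the same 4 treatments on Day 1, at 48 h. Another vehicle group and another 200 mg/kg group received 9.2 Gy of 60Co total-body irradiation (TBI) on Day 0 and were bled on Day 1, 24 h after it. Each mouse gave 1 terminal sample, so no mouse was measured before and after. The libraries were made from unsorted whole blood, so that fewer T cells and less T cell RNA per cell cannot be told apart.

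A T cell recognises antigen through the alpha and beta receptor chains, whose constant parts are encoded by Trac, Trbc1 and Trbc2. These chains have almost no cytoplasmic tail and signal through the CD3 gamma, delta and epsilon chains (Cd3g, Cd3d, Cd3e) and the zeta chain (Cd247). The kinase Lck, held by the CD4 or CD8 coreceptor, phosphorylates these chains, Zap70 then binds them and phosphorylates the adaptor Lat, and protein kinase C theta (Prkcq) carries the signal on. In blood most T cells are naive CD4 or CD8 cells, which depend on the transcription factors Tcf7 and Lef1, and a minority are regulatory cells marked by Foxp3. Lymphocytes are among the most radiosensitive cells of the body. Lat and Prkcq are also used by platelets downstream of the collagen receptor.

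Levels are CPM (a gene's counts relative to the total of its library), scaled by trimmed mean of M-values (TMM) over all 60 mice, given as the group median with the lowest and highest of its 6 mice. A gene was called changed where its adjusted p was under 0.05 and its absolute log2 fold change over 1, and every fold change below is on the log2 scale with its SE. Libraries held 15099415 to 45589415 gene counts. Several library features moved with the groups. The TMM factors ran from 0.415 to 0.680 in unirradiated Day 1 mice given 100 or 200 mg/kg and from 0.649 to 2.02 in the others, so that scaling to total counts instead moved the median of all genes by -1.38 and -1.48 in those groups against vehicle Day 1 and by 0.66 at 50 mg/kg on Day 0 against vehicle Day 0. In 10 mice, spread over 9 groups, at least 10 of 16 hepatocyte genes stood above 10 CPM. The part of these features in the results was not tested, and results that depend on them are given with both values. The members summed to 1892 (1713 to 2063) CPM in vehicle Day 1 mice, and all 38 had counts in all 60 mice, which does not test cell identity.

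Per kilobase of exon, the most abundant members in vehicle Day 1 blood were the receptor constant genes and Tcf7. Trbc2 had a median of 108 CPM per kilobase, Tcf7 67.0, Trac 60.4 and Trbc1 55.5. The lowest were the 3 regulatory genes Ikzf2 at 1.20, Foxp3 at 1.08 and Ctla4 at 1.06 CPM per kilobase. Cd4 stood at 12.3, and the CD8 chains at 6.21 for Cd8a and 15.5 for Cd8b1. Exon lengths were those of all annotated isoforms joined, so genes with long alternative ends are set too low on this scale.

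No member was called in any comparison of unirradiated mice on Day 0, between the vehicle days, or at 50 mg/kg on Day 1. For vehicle Day 1 against vehicle Day 0, edgeR called 0 of 38 members (0% of all 24375 genes, 3 members at an unadjusted p under 0.05). Against vehicle Day 0, 0 of 38 were called at 50 mg/kg (4.5% of all genes, 20 members at an unadjusted p under 0.05), and 0 of 38 at both 100 and 200 mg/kg (0% and 0% of all genes, 0 and 0 members). At 50 mg/kg on Day 1 the count was also 0 of 38 (0% of all genes, 2 members at an unadjusted p under 0.05), and DESeq2 called 0 members in each of these 5 comparisons. In sign, 37 of 38 members were above vehicle at 50 mg/kg on Day 0, with a median of 0.40 beside 0.029 over all genes, and 37 of 38 were above in the comparison of the vehicle days, with a median of 0.18 beside -0.014. The largest difference at 50 mg/kg was in Cd8b1, 0.65 ± 0.20 (SE; adjusted p = 0.051), and only Cd2, an adhesion receptor, came under the adjusted p limit at 0.36 ± 0.11 (SE; adjusted p = 0.049). With total-count scaling 24 of 38 members were called higher in this group (10.5% of all genes), at a median of 1.06 beside 0.69 for all genes, so that the call rested on the scaling. The erythroid genes were low in the same mice, with a summed level of 39899 (30087 to 107881) CPM against 134305 (87499 to 163100.0) CPM in vehicle mice, and their part in the result was not tested.

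**Figure D1:**
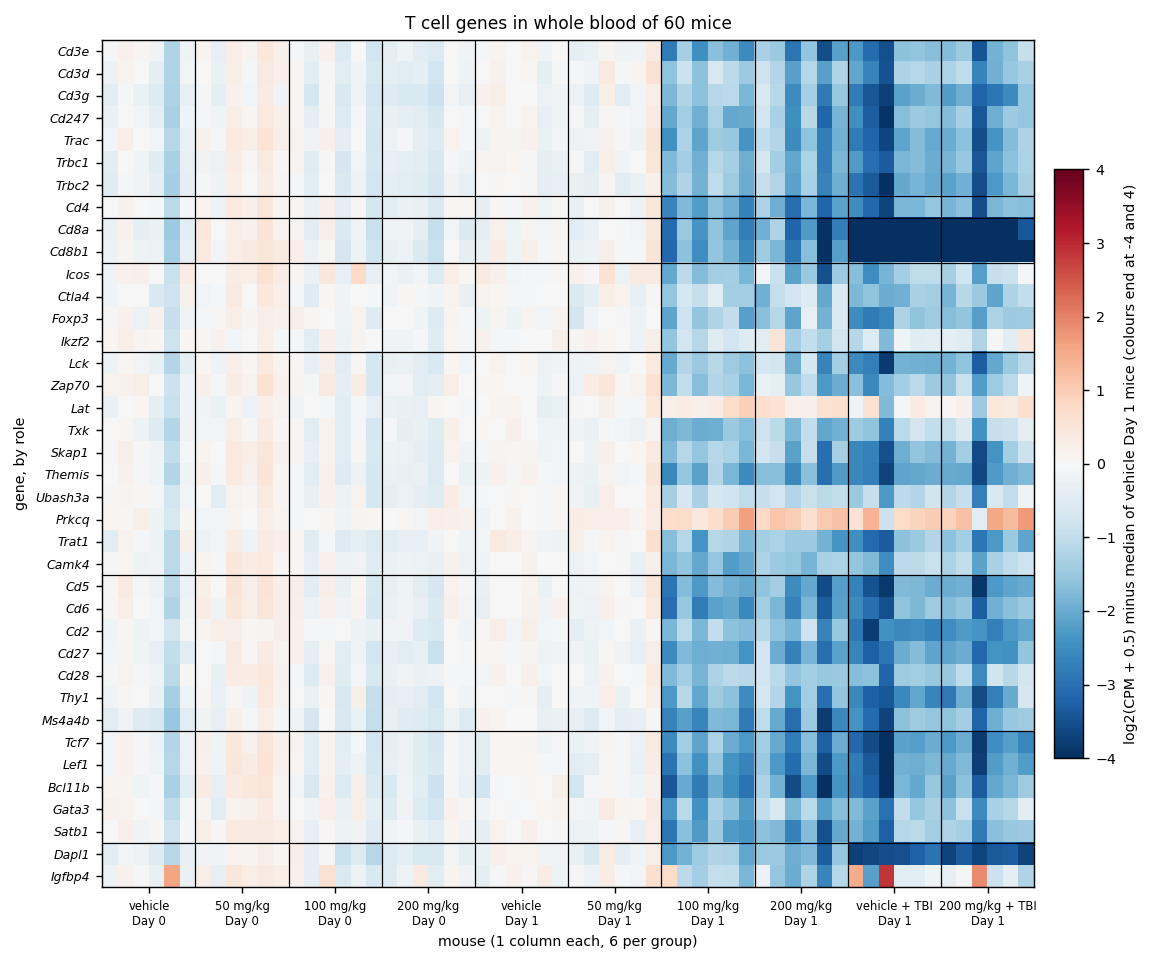
Level of each of the 38 T cell genes (rows, by role) in each of the 60 mice (columns, by group), as log2(CPM + 0.5) minus the median of the vehicle Day 1 mice, blue for lower and red for higher. The 24 mice on the right, from the 100 and 200 mg/kg Day 1 groups and both irradiated groups, are blue for nearly all genes except Lat and Prkcq (which fall at 100 and 200 mg/kg with total-count scaling) and some Igfbp4 values, and Cd8a, Cd8b1 and Dapl1 are darkest in the irradiated mice.

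On Day 1 the T cell genes fell at 100 and 200 mg/kg. At 100 mg/kg 33 of 38 members were called lower than in vehicle Day 1 mice and 0 higher (30.6% of all genes were lower), and at 200 mg/kg 33 were lower (30.5% of all genes) and 1, Prkcq, higher (17.3% of all genes). The median member changed by -1.70 and -1.42, beside -0.38 and -0.48 for all genes. With total-count scaling these medians were -3.08 and -2.90, beside -1.76 and -1.96. All 6 mice lay below all vehicle mice for 35 members at 100 mg/kg and 33 at 200 mg/kg, against 30.5% and 30.5% of all genes. Between 100 and 50 mg/kg on Day 1 33 of 38 members were lower (26.6% of all genes), whereas between 200 and 100 mg/kg 0 of 38 were called by edgeR or DESeq2 (0% of all genes, 1 member at an unadjusted p under 0.05). The comparisons with vehicle share their 6 vehicle mice, and those with 100 mg/kg share its 6 mice. Leaving out the mice with hepatocyte transcripts gave 34 lower and 1 higher at each dose, and total-count scaling 36 and 36 lower (62.2% and 65.5% of all genes) and 0 higher. With TMM scaling the erythroid genes summed to 99549 (78679 to 117157) CPM in vehicle Day 1 blood. Dosed mice held more, without overlap: 400447 (316785 to 585264) CPM at 100 mg/kg and 457210 (276358 to 624072) CPM at 200 mg/kg. All 7 erythroid genes were called higher at either dose, and their part in the lower T cell values was not tested.

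Within the receptor complex, all 7 genes were lower at both doses. In Day 0 blood, Cd3e had a median of 95.2 (43.5 to 113) CPM with vehicle, and 112 (80.9 to 137), 90.7 (59.8 to 114) and 84.2 (68.5 to 103) CPM with 50, 100 and 200 mg/kg. Its Day 1 medians were 101 (91.9 to 110.5) CPM with vehicle, then 90.1 (76.8 to 129.6), 22.2 (14.0 to 39.7) and 27.6 (8.13 to 40.7) CPM with rising dose, and irradiated mice had 25.5 (8.37 to 33.8) CPM after vehicle and 31.4 (8.85 to 53.7) CPM after 200 mg/kg. The 100 and 200 mg/kg Day 1 mice and both irradiated groups all lay under the lowest vehicle Day 1 mouse for Cd3e, while the 5 other unirradiated groups overlapped that group. Cd3e changed by -1.98 ± 0.23 (SE; adjusted p = 5.5e-06) at 100 mg/kg and -1.91 ± 0.31 (SE; adjusted p = 9.1e-05) at 200 mg/kg. Vehicle mice held 52.7 (25.2 to 67.7) CPM of Trac on Day 0 and 56.5 (46.7 to 63.4) CPM on Day 1. Mice on 50, 100 and 200 mg/kg held 67.3 (53.8 to 83.1), 53.9 (33.7 to 64.3) and 50.6 (38.2 to 62.8) CPM on Day 0, and 52.4 (47.9 to 81.3), 16.0 (10.1 to 23.8) and 16.3 (7.81 to 28.0) CPM a day later. After irradiation Trac was at 10.1 (3.94 to 16.6) CPM with vehicle and 15.2 (4.40 to 23.5) CPM with 200 mg/kg. Trac, which serves alpha-beta cells only, changed by -1.71 ± 0.22 (SE; adjusted p = 1.1e-05) and -1.62 ± 0.27 (SE; adjusted p = 0.00011), with no overlap between the groups. The other 5 genes of the complex changed by -1.10 (Cd3d) to -1.68 (Cd247) at 100 mg/kg and by -1.29 (Cd3d) to -1.47 (Cd247) at 200 mg/kg. Cd3d and Cd3g are neighbours read in opposite directions on chromosome 9 (GRCm38, chr9:44981786-44987339, forward strand and chr9:44969572-44980431, reverse strand), and Cd3e lies beside them (chr9:44998740-45009627, reverse strand). The beta constant genes, of which a T cell uses one or the other, showed no difference past the limit: the log2 ratio Trbc1/Trbc2 averaged -0.81 ± 0.087 (SD, n = 6) in vehicle Day 1 mice and differed from it by -0.034 (95% interval -0.20 to 0.14; exact permutation p = 0.652, adjusted p = 0.802) at 200 mg/kg. These constant genes are near-identical in sequence, so reads shared by both would not have been counted as unique hits.

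The CD4 and CD8 coreceptor genes all fell at 100 and 200 mg/kg. The Cd4 medians of the 4 Day 0 groups, from vehicle up to the highest dose, were 48.7 (23.0 to 56.1), 56.0 (43.0 to 69.5), 46.4 (30.2 to 57.5) and 40.4 (32.9 to 52.8) CPM. Those of the unirradiated Day 1 groups, in that order, were 49.5 (38.8 to 55.9), 49.7 (40.4 to 69.2), 11.5 (7.23 to 15.4) and 11.6 (5.10 to 20.5) CPM, followed by 11.0 (3.44 to 16.6) CPM in irradiated vehicle and 14.2 (3.75 to 15.6) CPM in irradiated 200 mg/kg mice. Cd4 changed by -2.04 ± 0.20 (SE; adjusted p = 8.7e-07) at 100 mg/kg and -2.0 ± 0.28 (SE; adjusted p = 2.3e-05) at 200 mg/kg. For Cd8a, vehicle, 50, 100 and 200 mg/kg mice had 17.9 (7.92 to 25.7), 25.9 (22.8 to 32.5), 18.6 (11.9 to 26.6) and 18.7 (11.5 to 21.1) CPM on Day 0, against 22.6 (17.2 to 25.6), 21.2 (16.9 to 30.6), 4.38 (2.24 to 7.73) and 3.61 (0.976 to 9.36) CPM on Day 1. Irradiated Cd8a levels were 0.412 (0.254 to 0.964) CPM (vehicle) and 0.542 (0.153 to 1.72) CPM (200 mg/kg). Cd8a changed by -2.14 ± 0.28 (SE; adjusted p = 1.4e-05) and -2.29 ± 0.37 (SE; adjusted p = 0.0001). In Day 0 blood, Cd8b1 had a median of 19.4 (8.38 to 24.7) CPM with vehicle, and 29.5 (21.2 to 32.1), 19.6 (13.1 to 27.6) and 18.1 (12.1 to 23.2) CPM with 50, 100 and 200 mg/kg. Its Day 1 medians were 23.0 (19.2 to 28.2) CPM with vehicle, then 22.1 (18.9 to 33.1), 4.75 (2.13 to 7.29) and 5.36 (0.867 to 8.24) CPM with rising dose, and irradiated mice had 0.213 (0.0282 to 0.628) CPM after vehicle and 0.385 (0.0956 to 0.693) CPM after 200 mg/kg. Cd8b1, the beta chain of the CD8 dimer that lies on chromosome 6 next to Cd8a (GRCm38, chr6:71322788-71337494, forward strand, and chr6:71373427-71379173, forward strand), changed by -2.19 ± 0.27 (SE; adjusted p = 9e-06) and -2.17 ± 0.34 (SE; adjusted p = 8.4e-05). All 3 genes had every 100 and 200 mg/kg Day 1 mouse below every vehicle Day 1 mouse. The ratio of Cd8a to Cd4 within a library does not depend on scaling. It averaged -1.13 ± 0.097 (log2, SD, n = 6) in vehicle Day 1 mice, and its difference was -0.17 (95% interval -0.46 to 0.13; exact permutation p = 0.208, adjusted p = 0.404) at 100 mg/kg and -0.46 (95% interval -1.14 to 0.22; exact permutation p = 0.113, adjusted p = 0.270) at 200 mg/kg. Neither difference passed, and at 200 mg/kg the 6 mice ran from -2.32 to -0.41, against -1.27 to -1.0 in vehicle mice.

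**Figure D2:**
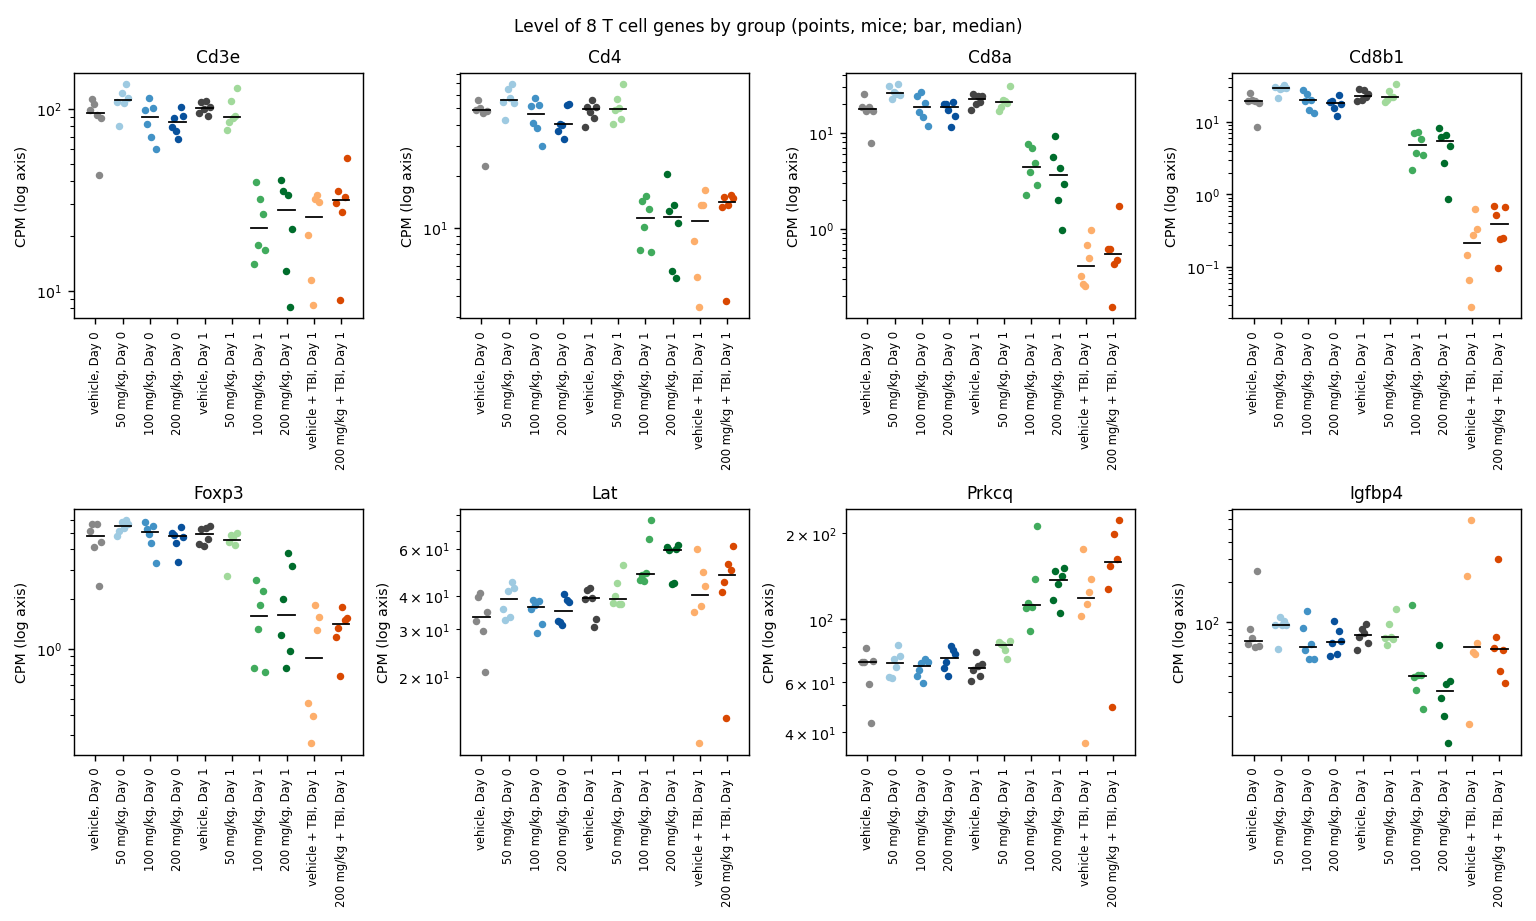
CPM on log axes for 8 T cell genes in each of the 10 groups, 1 point per mouse with a bar at the group median. Cd3e, Cd4, Cd8a, Cd8b1 and Foxp3 are low in the Day 1 groups given 100 or 200 mg/kg and in both irradiated groups, Cd8a and Cd8b1 are far lower with irradiation than without it, Prkcq is higher in most mice of those groups with TMM scaling (lower at 100 and 200 mg/kg with total-count scaling), and Igfbp4 has a few high mice.

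Of the 4 genes of regulatory and activated cells, 3 were lower at both doses. Vehicle mice held 4.79 (2.40 to 5.70) CPM of Foxp3 on Day 0 and 4.97 (4.21 to 5.53) CPM on Day 1. Mice on 50, 100 and 200 mg/kg held 5.53 (4.84 to 5.98), 5.12 (3.31 to 5.85) and 4.80 (3.35 to 5.42) CPM on Day 0, and 4.58 (2.76 to 5.01), 1.58 (0.723 to 2.60) and 1.60 (0.766 to 3.81) CPM a day later. After irradiation Foxp3 was at 0.883 (0.267 to 1.84) CPM with vehicle and 1.42 (0.688 to 1.78) CPM with 200 mg/kg. The transcription factor Foxp3 changed by -1.55 ± 0.30 (SE; adjusted p = 0.00049) at 100 mg/kg and -1.21 ± 0.35 (SE; adjusted p = 0.0072) at 200 mg/kg, without overlap between those groups and vehicle Day 1. The inhibitory receptor Ctla4 changed by -1.30 ± 0.30 and -1.28 ± 0.41, and the costimulator Icos by -1.76 ± 0.22 and -1.38 ± 0.47. Ikzf2, which encodes Helios, was not called, at -0.86 ± 0.18 (SE; adjusted p = 0.00087) and -0.54 ± 0.28 (SE; adjusted p = 0.11). Foxp3 was also read relative to Cd4. The log2 ratio Foxp3/Cd4 averaged -3.30 ± 0.12 in vehicle Day 1 mice and differed by 0.40 (95% interval 0.035 to 0.77; exact permutation p = 0.0216, adjusted p = 0.0820) at 100 mg/kg and 0.74 (95% interval -0.15 to 1.62; exact permutation p = 0.0714, adjusted p = 0.198) at 200 mg/kg, neither of which passed after adjustment. Foxp3 shares its locus with Ppp1r3f and Ccdc22 on the opposite strand, and the strand setting of the counting was not given, so some of its counts may belong to them.

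All 5 transcription factors and all 7 surface genes were lower at both doses. The Tcf7 medians of the 4 Day 0 groups, from vehicle up to the highest dose, were 157 (78.3 to 196), 201 (156 to 247), 149.5 (104 to 193) and 143 (111 to 168) CPM. Those of the unirradiated Day 1 groups, in that order, were 176 (130.0 to 191), 162 (144 to 223), 42.5 (29.9 to 72.7) and 43.6 (17.8 to 66.8) CPM, followed by 28.5 (6.17 to 44.2) CPM in irradiated vehicle and 33.2 (11.9 to 44.4) CPM in irradiated 200 mg/kg mice. For Lef1, vehicle, 50, 100 and 200 mg/kg mice had 92.9 (46.1 to 114), 119.8 (90.9 to 149), 84.5 (63.5 to 112) and 84.0 (67.0 to 98.6) CPM on Day 0, against 102 (74.5 to 108), 90.6 (75.1 to 126), 18.8 (12.7 to 34.1) and 20.4 (8.02 to 35.9) CPM on Day 1. Irradiated Lef1 levels were 19.9 (3.78 to 28.9) CPM (vehicle) and 23.0 (6.98 to 29.6) CPM (200 mg/kg). Both encode factors that naive T cells need, and their Day 1 values at 100 and 200 mg/kg did not overlap those of vehicle mice. Tcf7 changed by -1.74 ± 0.22 (SE; adjusted p = 1e-05) and -1.94 ± 0.26 (SE; adjusted p = 1.7e-05), and Lef1 by -2.08 ± 0.24 (SE; adjusted p = 4.7e-06) and -2.15 ± 0.28 (SE; adjusted p = 1.5e-05). The other factors were Bcl11b (-2.44 and -2.17), which keeps cells in the T lineage, Satb1 (-2.02 and -2.03), a chromatin organiser, and Gata3 (-1.80 and -1.29). Among surface genes the changes at 200 mg/kg ran from -1.24 for the costimulator Cd28 to -2.05 for the scavenger-type receptor Cd6. The log2 ratio Tcf7/Cd3e differed by 0.28 (95% interval 0.05 to 0.51; exact permutation p = 0.0325, adjusted p = 0.106) at 100 mg/kg and 0.07 (95% interval -0.26 to 0.40; exact permutation p = 0.632, adjusted p = 0.802) at 200 mg/kg.

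Proximal signalling held the only 2 of the 38 members, Lat and Prkcq, with positive changes at 100 and 200 mg/kg with TMM scaling. In Day 0 blood, Lck had a median of 75.5 (39.2 to 95.9) CPM with vehicle, and 97.0 (78.0 to 118), 81.4 (55.0 to 106) and 74.0 (59.0 to 95.0) CPM with 50, 100 and 200 mg/kg. Its Day 1 medians were 89.9 (75.5 to 98.2) CPM with vehicle, then 84.1 (77.4 to 119), 32.7 (21.8 to 41.6) and 44.1 (13.6 to 55.9) CPM with rising dose, and irradiated mice had 19.0 (5.89 to 23.7) CPM after vehicle and 26.6 (8.60 to 42.8) CPM after 200 mg/kg. Lck, the first kinase of the cascade, changed by -1.36 ± 0.15 (SE; adjusted p = 2.9e-06) and -1.09 ± 0.28 (SE; adjusted p = 0.0036). At 200 mg/kg it lay close to the fold limit and was not called without mouse 45 or without mouse 47 (log2 fold change -0.96 and -0.91). Vehicle mice held 33.4 (20.8 to 41.1) CPM of Lat on Day 0 and 39.2 (30.5 to 42.9) CPM on Day 1. Mice on 50, 100 and 200 mg/kg held 38.8 (32.6 to 45.2), 36.4 (29.1 to 38.6) and 35.1 (31.0 to 40.6) CPM on Day 0, and 38.9 (37.2 to 52.3), 48.2 (45.5 to 76.6) and 59.6 (44.3 to 61.9) CPM a day later. After irradiation Lat was at 40.2 (11.2 to 59.8) CPM with vehicle and 47.7 (14.0 to 61.2) CPM with 200 mg/kg. Every 100 and 200 mg/kg Day 1 mouse was above every vehicle Day 1 mouse for Lat, with differences of 0.60 ± 0.14 (SE; adjusted p = 0.0019) and 0.62 ± 0.12 (SE; adjusted p = 0.00052), under the fold limit. The Prkcq medians of the 4 Day 0 groups, from vehicle up to the highest dose, were 70.9 (43.2 to 79.4), 70.2 (61.9 to 81.1), 68.2 (59.7 to 72.4) and 73.3 (63.1 to 80.7) CPM. Those of the unirradiated Day 1 groups, in that order, were 67.5 (60.6 to 76.8), 81.4 (72.6 to 83.7), 112 (90.8 to 212) and 137 (105 to 152) CPM, followed by 118 (36.6 to 177) CPM in irradiated vehicle and 158 (49.1 to 222) CPM in irradiated 200 mg/kg mice. Prkcq differed by 0.99 ± 0.17 (SE; adjusted p = 0.00016) at 100 mg/kg, just under the limit, and by 1.05 ± 0.11 (SE; adjusted p = 1.3e-06) at 200 mg/kg, again with no overlap. Both directions rested on the scaling: with total counts Lat differed by -0.83 and -0.91 and Prkcq by -0.42 and -0.49. The ratio Lat/Cd3e, which no scaling alters, averaged -1.43 ± 0.17 (log2) in vehicle Day 1 mice and rose by 2.67 (95% interval 1.94 to 3.41; exact permutation p = 0.00216, adjusted p = 0.0195) at 100 mg/kg and 2.75 (95% interval 1.78 to 3.73; exact permutation p = 0.00216, adjusted p = 0.0195) at 200 mg/kg, the smallest p that 6 against 6 mice allow. Ubash3a, a negative regulator of the receptor, was lower without passing the fold limit (-0.90 ± 0.14 and -0.92 ± 0.11), and Zap70 was called at 100 mg/kg (-1.41 ± 0.17) but not at 200 mg/kg (-0.98 ± 0.31). The remaining 5, Txk, Skap1, Themis, Trat1 and Camk4, were lower at both doses, between -1.38 (Skap1) and -1.89 (Themis) at 100 mg/kg.

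With TMM scaling, platelet transcripts were higher at the 2 doses at which Lat and Prkcq stood higher on Day 1. With total-count scaling Lat and Prkcq were lower at these doses (Prkcq -0.42 and -0.49), while the platelet markers stayed higher. All 7 platelet markers were called higher at 100 and at 200 mg/kg on Day 1, with median changes of 3.19 and 3.37, values that ran from 1.32 to 2.03 over the 7 markers at 200 mg/kg with total-count scaling, and their summed level was 2141 (1750.0 to 3526) CPM in vehicle Day 1 mice, 15901 (13393 to 29388) CPM at 100 mg/kg and 20142 (12805 to 22379) CPM at 200 mg/kg. In irradiated vehicle mice it was 12751 (3418 to 24842) CPM, and mouse 51, which had the lowest Lat (11.2 CPM) and Prkcq (36.6 CPM) of that group, held hepatocyte transcripts. The part of platelet RNA in the Lat and Prkcq levels was not tested. A list of 21 further genes of the receptor cascade was chosen with earlier results of these data known. Of these, 12 were called lower and 2 higher at 100 mg/kg, and 9 lower and 3 higher at 200 mg/kg. Over all genes 30.6% were lower and 18.2% higher at 100 mg/kg, and 30.5% and 17.3% at 200 mg/kg, so the share of higher genes in the list did not exceed the background. Those higher at 200 mg/kg were Bcl10 (1.08 ± 0.098), Fyn (1.09 ± 0.12) and Grap2 (1.51 ± 0.12), an adaptor, a kinase and an adaptor, whose direction turned with total-count scaling (-0.46, -0.44 and -0.013), while the exchange factor Rasgrp1 (-1.80 ± 0.27) was lower.

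Sequence before the start sites is shown for a pair of members that fell (Cd3d and Cd8a) and for the pair that stood higher on Day 1 with TMM scaling (Lat and Prkcq), to set their CpG content side by side. The 250 bases upstream of the RefSeq start (GRCm38.p6) were found for 25 of 38 members, and CG dinucleotides are in capitals.
Cd3d (chr9:44981536-44981785, plus strand): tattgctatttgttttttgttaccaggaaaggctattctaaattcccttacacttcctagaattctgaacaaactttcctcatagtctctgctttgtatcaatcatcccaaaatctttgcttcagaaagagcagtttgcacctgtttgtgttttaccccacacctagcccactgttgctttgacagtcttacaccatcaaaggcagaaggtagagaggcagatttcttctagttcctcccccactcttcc
Cd8a (chr6:71373177-71373426, plus strand): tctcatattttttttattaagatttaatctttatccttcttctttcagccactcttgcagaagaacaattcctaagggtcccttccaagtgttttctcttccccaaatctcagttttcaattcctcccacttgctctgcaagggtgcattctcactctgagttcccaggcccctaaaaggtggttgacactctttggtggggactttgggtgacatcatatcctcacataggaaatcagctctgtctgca
Lat (chr7:126369569-126369818, minus strand): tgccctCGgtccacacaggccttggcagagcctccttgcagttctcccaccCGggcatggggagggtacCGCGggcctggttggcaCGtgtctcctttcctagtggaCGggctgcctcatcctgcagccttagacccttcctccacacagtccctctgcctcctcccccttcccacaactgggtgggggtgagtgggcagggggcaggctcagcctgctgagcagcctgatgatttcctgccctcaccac
Prkcq (chr2:11172132-11172381, plus strand): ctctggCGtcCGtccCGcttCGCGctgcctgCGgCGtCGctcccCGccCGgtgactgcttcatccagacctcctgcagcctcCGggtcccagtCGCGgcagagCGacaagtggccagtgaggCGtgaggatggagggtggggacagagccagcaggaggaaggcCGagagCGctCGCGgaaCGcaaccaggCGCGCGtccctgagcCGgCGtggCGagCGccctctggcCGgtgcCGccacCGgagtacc
The motif searched was CG, which reads the same on both strands. Cd3d and Cd8a held 0 and 0 such dinucleotides, Lat 6 and Prkcq 30. Of the 25 members only Ms4a4b also held 0, so the pair that fell is from the low end. Over all 32851 promoters of this length the median was 6. It was 4 (0 to 37) over the 21 members called lower at 200 mg/kg and 6 (5 to 30) over the 4 not called lower. Those 4 were Lat, Prkcq, Zap70 and Ubash3a, of which Zap70 and Ubash3a had negative changes that missed the fold limit. At least 5 were held by 10 of the 21 and by all 4 others, against 55.6% of all promoters. Tcf7, which fell, held the most of the 25, so that the ranges overlapped, and it was not tested.

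Irradiation lowered 34 of 38 members in vehicle mice against vehicle Day 1 and raised 0 (16.4% of all genes were lower), with a median of -2.28 beside 0.088 for all genes. Against vehicle Day 0 33 were lower (11.8% of all genes) at a median of -1.97. Both comparisons use the same 6 irradiated mice. Without the mice with hepatocyte transcripts 33 were lower and 1, Prkcq, higher (1.04) against vehicle Day 1. The CD8 genes and Dapl1 had the largest changes of the 38. Cd8a changed by -5.48 ± 0.36 (SE; adjusted p = 1.6e-06) and Cd8b1 by -6.57 ± 0.57 (SE; adjusted p = 6e-06), which are 44.6-fold and 94.9-fold lower levels, while Cd4 changed by -2.27 ± 0.35 (SE; adjusted p = 0.00021), a 4.83-fold lower level. Every irradiated vehicle mouse had 4 to 26 Cd8a counts and 1 to 15 Cd8b1 counts, so single values rest on few reads. Dapl1 changed by -5.32 ± 0.49 (SE; adjusted p = 7.6e-06), to 1 to 11 counts. The Cd8a/Cd4 ratio went from -1.13 ± 0.097 (log2, SD, n = 6) to -4.25 ± 0.38 and differed by -3.12 (95% interval -3.52 to -2.72; exact permutation p = 0.00216, adjusted p = 0.0195), without overlap. In the 200 mg/kg Day 1 mice, compared with the same vehicle mice, it was -1.59 ± 0.65.

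Other members fell by 1.29 to 2.90 on the log2 scale after irradiation or were not called. All 7 receptor genes were lower, from -1.81 (Cd3d) to -2.60 (Cd3g), with Cd3e at -2.18 ± 0.33 (SE; adjusted p = 0.00019) and Trac at -2.5 ± 0.33 (SE; adjusted p = 7.5e-05). Foxp3 changed by -2.34 ± 0.44 (SE; adjusted p = 0.00093), Ctla4 by -2.5 ± 0.28 and Icos by -1.80 ± 0.30, and the Foxp3/Cd4 ratio differed by -0.19 (95% interval -0.74 to 0.35; exact permutation p = 0.381, adjusted p = 0.584). Lck changed by -2.37 ± 0.30 (SE; adjusted p = 5.9e-05), Tcf7 by -2.67 ± 0.41 (SE; adjusted p = 0.00022) and Lef1 by -2.46 ± 0.41 (SE; adjusted p = 0.00043). The surface genes ran from -1.79 (Cd28) to -2.90 (Cd2). The 4 members not called were Ikzf2 (-0.78 ± 0.25), Lat (0.027 ± 0.30), Prkcq (0.74 ± 0.28) and Igfbp4 (1.02 ± 0.64). The Lat/Cd3e ratio rose by 2.24 (95% interval 1.41 to 3.07; exact permutation p = 0.00216, adjusted p = 0.0195), and Tcf7/Cd3e fell, with a difference of -0.59 (95% interval -0.95 to -0.23; exact permutation p = 0.00433, adjusted p = 0.0283), a call that was lost without the mice with hepatocyte transcripts (difference -0.39).

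**Figure D3:**
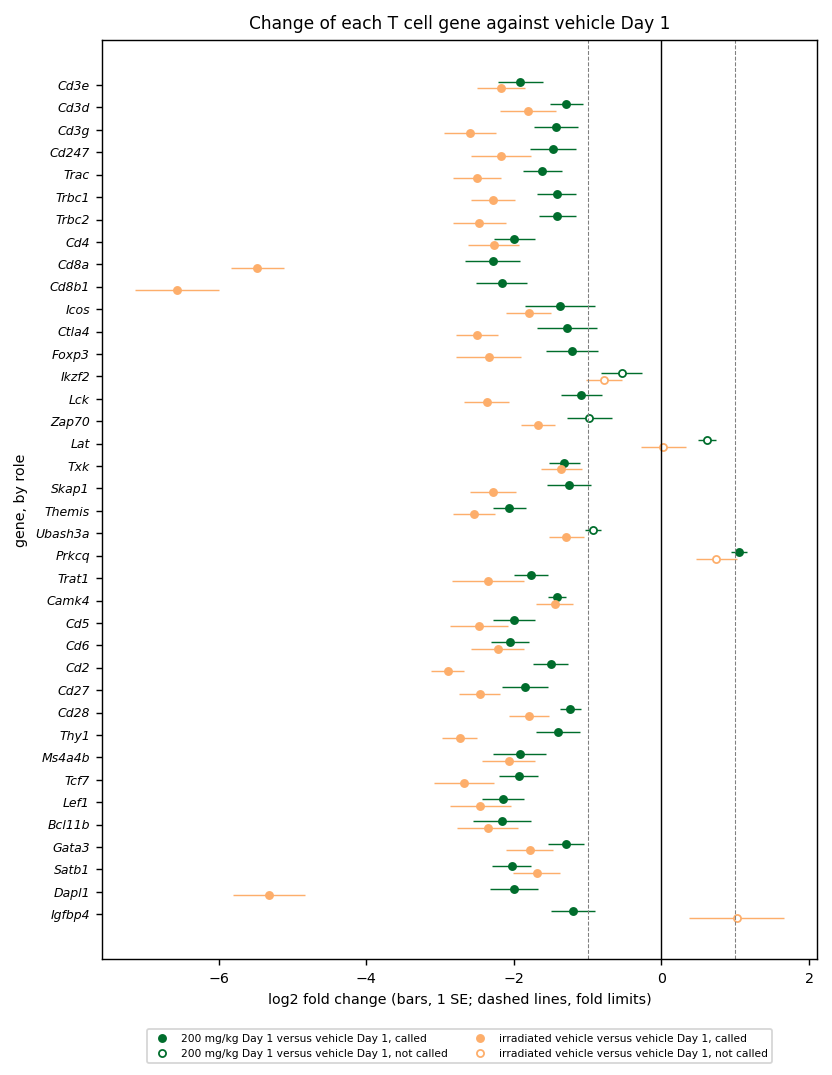
Log2 fold change against vehicle Day 1 for each T cell gene, by role, at 200 mg/kg on Day 1 (green) and in irradiated vehicle mice (orange), with bars of 1 SE, filled where called and open where not; the dashed lines are the fold limits of -1 and 1. Most genes lie between -1 and -3 in both, Cd8a, Cd8b1 and Dapl1 lie below -5 with irradiation but not at 200 mg/kg, and Lat and Prkcq lie at or above 0, a direction that turns at 200 mg/kg with total-count scaling. Both comparisons use the same vehicle mice.

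Igfbp4, a binding protein for insulin-like growth factors made by naive T cells among many tissues, had a few mice far above the rest of their groups. For Igfbp4, vehicle, 50, 100 and 200 mg/kg mice had 72.9 (65.2 to 241), 95.8 (63.3 to 109.7), 65.9 (52.8 to 123) and 71.3 (56.5 to 103) CPM on Day 0, against 80.1 (61.8 to 97.7), 77.5 (67.3 to 126), 39.7 (22.2 to 135) and 30.6 (12.4 to 67.7) CPM on Day 1. Irradiated Igfbp4 levels were 65.1 (17.5 to 583) CPM (vehicle) and 63.2 (34.8 to 301) CPM (200 mg/kg). The high values came from mouse 17 (vehicle, Day 0), mouse 37 (100 mg/kg, Day 1), mice 49 and 51 (irradiated vehicle, mouse 49 at 224 CPM) and mouse 57 (irradiated 200 mg/kg), all of which held hepatocyte transcripts, and the adipocyte list summed to up to 1018 CPM among irradiated vehicle mice. Igfbp4 was lower at 200 mg/kg on Day 1 by -1.20 ± 0.30 (SE; adjusted p = 0.0031), and by -1.45 without the mice with hepatocyte transcripts. The part of those transcripts in its level was not tested.

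Giving BIO 300 before irradiation was followed by no called difference in T cell genes between irradiated groups. Between irradiated 200 mg/kg and irradiated vehicle mice edgeR and DESeq2 called 0 of 38 members (0% of all genes, 0 members at an unadjusted p under 0.05). The differences were positive for 36 of 38 members at a median of 0.33, beside -0.069 for all genes. With total-count scaling these medians were 0.13 and -0.20. The 95% intervals were -0.51 to 1.30 for Cd3e, -0.63 to 1.16 for Cd4 and -0.83 to 1.5 for Cd8a, which bound the differences that 6 mice a group leave possible. The Cd8a/Cd4 ratio differed by -0.16 (95% interval -0.90 to 0.58; exact permutation p = 0.641, adjusted p = 0.802). The ratio with the smallest p here, Cd3e/Ptprc, differed by 0.65 (95% interval -0.028 to 1.32; exact permutation p = 0.0303, adjusted p = 0.106), which did not pass after adjustment. Mouse 57 was the lowest irradiated 200 mg/kg mouse for Cd3e and Cd4 and held hepatocyte transcripts.

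Among mice given 200 mg/kg, few of the 38 genes were called different between irradiated and unirradiated Day 1 mice, while 5 of 8 ratios of gene pairs passed. Of the 38, 3 were lower with irradiation (5.73% of all genes) and 1 higher (14.9% of all genes), and the median was -0.22 beside 0.41 for all genes. With total-count scaling the member median turned to 0.52, beside 1.31 for all genes. Those lower were Cd8a, at -2.70 ± 0.60 with an adjusted p of 0.0048, Cd8b1, at -3.60 ± 0.58 with an adjusted p of 0.00068, and Dapl1, at -3.60 ± 0.60 with an adjusted p of 0.00086. The 1 higher was Igfbp4, at 1.53 ± 0.53 with an adjusted p of 0.047. Its irradiated group includes mouse 57 (301 CPM), which held hepatocyte transcripts, as did mouse 43 of the unirradiated group. Cd4 differed by 0.12 ± 0.37 (SE; adjusted p = 0.83) and Cd3e by 0.26 ± 0.41 (SE; adjusted p = 0.66). The Cd8a/Cd4 ratio differed by -2.82 (95% interval -3.67 to -1.96; exact permutation p = 0.00216, adjusted p = 0.0104), adjusted over the 8 ratios tested in this comparison. All irradiated 200 mg/kg mice were below all unirradiated 200 mg/kg mice for that ratio. The other 4 ratios that passed had groups that overlapped. Cd3e fell against Ptprc, by -1.24 (95% interval -1.94 to -0.54; exact permutation p = 0.00649, adjusted p = 0.0104), and Tcf7 against Cd3e, by -0.72 (95% interval -1.27 to -0.17; exact permutation p = 0.00649, adjusted p = 0.0104). Cd3e rose against Cd79a, by 2.84 (95% interval 1.32 to 4.35; exact permutation p = 0.00649, adjusted p = 0.0104), and against Ncr1, by 0.94 (95% interval 0.33 to 1.54; exact permutation p = 0.00649, adjusted p = 0.0104). Total-count scaling called Satb1 and Txk higher as well, at 3 lower and 3 higher (0.945% and 38.5% of all genes).

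The difference between irradiated and unirradiated mice was itself compared between 200 mg/kg and vehicle. This interaction was called positive for 34 of 38 members (19.5% of all genes) and called negative for 0. In sign it was positive for 36 members and negative for 2. It uses the same 200 mg/kg and vehicle Day 1 mice as the comparisons above. Its median was 2.04 beside 0.60 for all genes. It was 2.54 ± 0.54 (SE; adjusted p = 0.0011) for Cd3e, 2.5 ± 0.51 (SE; adjusted p = 0.0009) for Cd4, 2.87 ± 0.67 (SE; adjusted p = 0.0023) for Cd8a and 1.84 ± 0.60 (SE; adjusted p = 0.02) for Foxp3. The 4 members not called were Lat, Prkcq, Igfbp4 and Dapl1. Without irradiation the 200 mg/kg mice were already low, with a Cd3e median of 27.6 CPM against 101 CPM in vehicle Day 1 mice. The irradiated groups had 31.4 CPM after 200 mg/kg and 25.5 CPM after vehicle, and 0 of 38 members were called between them. The interaction of dose with day was called negative for 33 of 38 members at 100 mg/kg (26.3% of all genes) and 32 at 200 mg/kg (23.6% of all genes), with Cd3e at -1.95 ± 0.33 and -1.83 ± 0.37, Cd4 at -2.03 ± 0.29 and -1.91 ± 0.34, and Cd8a at -2.28 ± 0.38 and -2.30 ± 0.46. At 50 mg/kg edgeR and DESeq2 called 0 of 38 (7.69% of all genes, 12 members at an unadjusted p under 0.05), but 35 were lower with total-count scaling (38.7% of all genes), at a median of -1.35 beside -1.05 for all genes. The 100 and 200 mg/kg Day 1 mice were separate animals from those of Day 0, and their low TMM factors cannot be told apart from the dose and day.

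T cell genes were also read against genes of other lymphocytes in the same library. Against Ncr1, a receptor of natural killer cells, Cd3e fell: the log2 ratio was 2.24 ± 0.52 (SD, n = 6) in vehicle Day 1 mice and differed by -1.72 (95% interval -2.39 to -1.04; exact permutation p = 0.00216, adjusted p = 0.0195) at 100 mg/kg and -2.36 (95% interval -3.06 to -1.66; exact permutation p = 0.00216, adjusted p = 0.0195) at 200 mg/kg, without overlap, and by -1.03 (95% interval -1.78 to -0.28; exact permutation p = 0.0152, adjusted p = 0.0642) in irradiated vehicle mice. Against Cd79a, the signalling chain of the B cell receptor, it differed by -0.73 (95% interval -1.05 to -0.42; exact permutation p = 0.00216, adjusted p = 0.0195) at 100 mg/kg, -0.49 (95% interval -1.26 to 0.28; exact permutation p = 0.139, adjusted p = 0.302) at 200 mg/kg and 1.56 (95% interval 0.47 to 2.65; exact permutation p = 0.0152, adjusted p = 0.0642) with irradiation. The ratio to Ptprc, which encodes CD45 of all leukocytes, differed by -0.36 (95% interval -0.70 to -0.012; exact permutation p = 0.0108, adjusted p = 0.0557) at 100 mg/kg, -0.55 (95% interval -0.94 to -0.16; exact permutation p = 0.00433, adjusted p = 0.0283) at 200 mg/kg and -2.44 (95% interval -2.69 to -2.18; exact permutation p = 0.00216, adjusted p = 0.0195) with irradiation. Ptprc itself was lower at 100 and 200 mg/kg, with medians of 188 and 227 CPM against 633 CPM in vehicle Day 1 mice. In irradiated vehicle mice its median was 765 CPM. In the lists, all 8 B cell markers were called lower at 100 mg/kg, at 200 mg/kg and with irradiation (medians -1.49, -1.73 and -3.49). Of the 7 natural killer markers 0, 0 and 5 were called lower, and 1 of the 7, Klra8, had a median of 0 CPM in these groups. At 200 mg/kg the medians of Ncr1 (26.2 against 19.1 CPM) and Gzma (69.8 against 53.3 CPM) were above vehicle Day 1. Those of Prf1, Eomes, Klrb1c, Klre1 and Klra8 were below it. The 7 markers summed to 109 (76.4 to 195) CPM in vehicle Day 1 mice. At 100 and 200 mg/kg they summed to 87.3 (73.2 to 100) and 125 (32.6 to 340) CPM. Over all genes 30.6%, 30.5% and 16.4% were lower, and the medians were -0.38, -0.48 and 0.088.

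**Figure D4:**
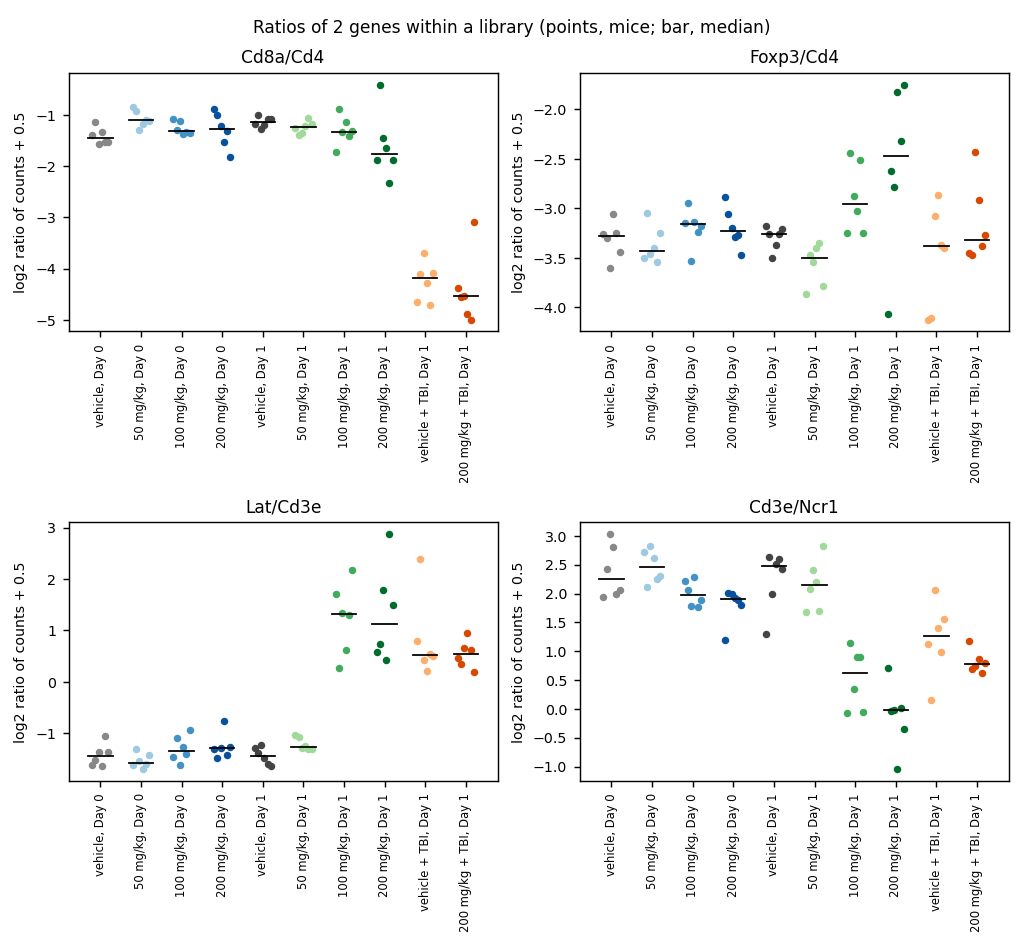
Log2 ratio of the counts of 2 genes within each library (each count + 0.5) for Cd8a/Cd4, Foxp3/Cd4, Lat/Cd3e and Cd3e/Ncr1 in the 10 groups, 1 point per mouse with a bar at the median. Cd8a/Cd4 is lowest in the irradiated groups, Lat/Cd3e is above 0 in the Day 1 groups given 100 or 200 mg/kg and both irradiated groups, and Cd3e/Ncr1 is lowest in the 200 mg/kg Day 1 group.

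Of 21 genes for homing, the naive state or effector function, 11 were lower and 0 higher at 100 mg/kg, 9 lower and 0 higher at 200 mg/kg and 11 lower and 0 higher with irradiation, with medians of -1.12, -1.05 and -1.24. Over all genes 30.6%, 30.5% and 16.4% were lower in these comparisons, and the medians were -0.38, -0.48 and 0.088. Ccr7, the lymph node homing receptor of naive cells, changed by -2.10 ± 0.28 (SE; adjusted p = 1.7e-05) at 200 mg/kg and -3.09 ± 0.44 (SE; adjusted p = 0.00013) with irradiation. Il7r, the receptor for the survival cytokine of naive cells, changed by -1.90 ± 0.23 (SE; adjusted p = 6.6e-06) and -2.26 ± 0.39 (SE; adjusted p = 0.0005). The chemokine Ccl5, made by effector cells, differed by 1.10 ± 0.48 (SE; adjusted p = 0.056) and -1.24 ± 0.40 (SE; adjusted p = 0.023). The thymocyte markers, Rag1, Rag2, Dntt and Ptcra, together reached at most 1.22 CPM in any mouse.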

How the data were processed

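RNA-seq gene counts from whole blood of 60 mice in 10 groups of 6 were used, grouped by the submitters' labels. The authors trimmed reads (Trimmomatic 0.36), aligned them to GRCm38 (STAR 2.5.2b) and deposited raw counts per gene of unique hits (Subread 1.5.2). The annotation release and strand setting are not given in the sources used here. The labels give poly(A) selection, whereas the study's methods give a stranded total RNA kit that removes ribosomal and globin RNA. The deposited tables of the authors' own DESeq2 comparisons (fold changes and p-values) were used for gene names only, in which Bcl11b appears as Rit1.

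Genes with at least 10 counts in a fit entered edgeR 4.0.16 (R 4.3.3) quasi-likelihood tests with TMM factors: 13 pair comparisons of 12 mice and 4 interactions of 24. P-values were Benjamini-Hochberg adjusted over all genes, and a call needed an adjusted value under 0.05 with a log2 fold change above 1 or below -1. The SE is the absolute log2 fold change divided by the square root of F. Ratios of 2 genes, log2 of counts plus 0.5, were compared by 2-sided exact permutation tests over mice (72 tests, adjusted together, 11 called), and 8 ratios between irradiated and unirradiated 200 mg/kg mice, and total-count values of Bcl10, Fyn, Grap2, Trdc and the platelet markers, were added after the data were seen. The 95% intervals use t quantiles, on mice minus groups for fold changes and with unequal variances for ratios. The fits were tested on simulated data. Alternatives were DESeq2 1.42.0, total-count and RLE scaling, other count filters, no fold limit, 1 fit of all mice, leaving out mice and other pseudocounts.

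Levels in every group are given for Cd3e, Trac, Cd4, Cd8a, Cd8b1, Foxp3, Lck, Lat, Tcf7, Lef1 and members called against the direction of most in a comparison (Prkcq, Igfbp4). The members and lists were chosen with earlier results of these data known.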

Additional observations from a re-analysis of the deposited data

Results flagged for a closer look

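Of 120 sets of 6 mice (12 genes in 10 groups), 10 held a mouse farther from the others than Dixon's 95% limit, and chance flags about 1 in 20. Mouse 17 (vehicle, Day 0) was low for Cd3e (43.5 CPM) and Cd4 (23.0 CPM) and high for Igfbp4 (241 CPM). Mouse 57 (irradiated 200 mg/kg) was low for Cd4 (3.75 CPM) and high for Igfbp4 (301 CPM). Igfbp4 was also high in mouse 37 (100 mg/kg, Day 1, 135 CPM) and mouse 51 (irradiated vehicle, 583 CPM), and low in mouse 2 (50 mg/kg, Day 0, 63.3 CPM). Mice 17, 37, 51 and 57 held hepatocyte transcripts, whose part in these values was not tested. Mouse 60 (irradiated 200 mg/kg) was high for Cd8a (1.72 CPM), and mouse 31 (50 mg/kg, Day 1) was low for Foxp3 (2.76 CPM).

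The effect of irradiation differed between 200 mg/kg and vehicle for 34 of 38 members by the edgeR interaction, with values of 2.54 for Cd3e, 2.5 for Cd4, 2.87 for Cd8a, 3.05 for Cd8b1 and 1.84 for Foxp3. Unirradiated 200 mg/kg mice were already low for these genes, and between the irradiated groups 0 of 38 members were called. The effect of 100 mg/kg differed between the days for 33 members (Cd3e -1.95, Cd4 -2.03, Cd8a -2.28, Cd8b1 -2.30, Foxp3 -1.66), and that of 200 mg/kg for 32 (Cd3e -1.83, Cd4 -1.91, Cd8a -2.30, Cd8b1 -2.13, Foxp3 -1.24).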

How the results depend on the processing

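Of the counts of members called, 203 alternative values lay within 1.5 times the main count. The exceptions were total-count scaling at 50 mg/kg on Day 0 (24 against 0), for the 50 mg/kg by day interaction (35 against 0) and between irradiated and unirradiated 200 mg/kg mice (6 against 4, now 3 lower and 3 higher), and dropping the fold limit (1 at 50 mg/kg on Day 0 and 2 for the 50 mg/kg by day interaction). Total-count scaling also turned Prkcq at 200 mg/kg on Day 1 (-0.49). Leaving out 1 mouse gave 33 to 35 calls at 100 and at 200 mg/kg on Day 1, 34 in irradiated vehicle mice, and 0 at 50 mg/kg on either day and between the irradiated groups. Without mouse 26 or mouse 30 Prkcq at 200 mg/kg was not called (0.98 and 1.00). Without the mice with hepatocyte transcripts Foxp3 lost its 200 mg/kg by day call (-0.99). Among single genes 3083 values kept their call, 17 lost it and 1 turned, and the causes were not tested. No paired analysis was possible because each animal number occurs once. Cd8b1 and Dapl1 rested on under 20 counts a mouse after irradiation.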

Other observations

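Among gamma-delta T cell markers, which are no members, Trdc, the delta chain constant gene, went opposite to Trac. Its median was 57.1 CPM in vehicle Day 1 mice, 342 CPM at 100 mg/kg and 365 CPM at 200 mg/kg on Day 1, 254 CPM in irradiated vehicle mice and 345 CPM in irradiated 200 mg/kg mice. Trdc rose by 2.60 ± 0.18 (SE; adjusted p = 4.1e-08) at 100 mg/kg, 2.52 ± 0.17 (SE; adjusted p = 2.6e-08) at 200 mg/kg and 2.07 ± 0.35 (SE; adjusted p = 0.00047) with irradiation, by edgeR's quasi-likelihood test. With total-count scaling these values were 1.18, 0.96 and 1.54. None of the 3 gamma chain constant genes was called there: at 200 mg/kg the log2 fold change was -0.78 ± 0.73 (SE; adjusted p = 0.37) for Trgc1, -0.11 ± 0.74 (SE; adjusted p = 0.91) for Trgc2 and -0.094 ± 0.59 (SE; adjusted p = 0.9) for Trgc4. In irradiated vehicle mice the medians of Trgc1, Trgc2 and Trgc4 were 0.88, 1.27 and 1.48 CPM, against 1.18, 1.92 and 1.52 CPM in vehicle Day 1 mice. Sox13, the remaining marker of the list, had a median of 0.94 CPM in vehicle Day 1 mice. It stood at 1.22 and 0.67 CPM at 100 and 200 mg/kg on Day 1, and at 2.79 CPM in irradiated vehicle mice. Trdc was singled out after its values were seen.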
